A study of Mus musculus with 9 samples.

Results

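Messenger RNA of STING knockout dendritic cells given tumor DNA was compared with that of wild-type dendritic cells left in media. The comparison takes the 3 arrays titled as STING cells with tumor DNA and the 3 titled as wild-type cells in media, 6 of the 9 arrays of the series. All cells came from marrow of mice labelled 129/SvEv and were cultured with GM-CSF, which drives marrow progenitors toward dendritic cells, over 9 to 12 days. The knockout cells carried the STING knockout genotype and received purified DNA of tumor cells with the lipid reagent Lipofectamine for 7 h. The wild-type media cells were unstimulated. The third group, wild-type cells given tumor DNA in the same way for 7 h, also holds 3 arrays. Its signals are quoted for reference, and its arrays entered the fit, where they share the estimate of spread. Unstimulated knockout cells and reagent-only controls were not analysed here. The genotype, the DNA and the reagent therefore cannot be told apart in any difference below. GM-CSF cultures of marrow hold macrophages and granulocytes beside dendritic cells, and in such bulk RNA fewer cells of a type and less RNA per cell cannot be told apart. The labels do not say whether the 3 arrays of a group came from separate mice or cultures.

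STING is a membrane adaptor of the cytosolic DNA response. The sensor cGAS binds DNA in the cytosol and makes a cyclic dinucleotide. That messenger activates STING, which recruits the kinase TBK1 and the transcription factor IRF3 and leads to transcription of the type I interferons. Interferon then acts through its receptor and transcription factors such as IRF9 on a large set of interferon-stimulated genes. Transfected DNA can also reach other receptors, such as those of the inflammasome. A knockout given DNA, set against unstimulated wild-type cells, shows what differs once genotype, DNA and reagent have all changed.

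Deposited signals are given as 3 values in the order of the array numbers 1, 2 and 3. Differences are knockout with DNA minus wild type in media on the log2(signal + 16) scale, with a standard error (SE, n = 3 against 3 arrays). A difference of 1 on this scale is a 2-fold change of signal + 16. It understates the change of dim probe sets. A probe set was called, and its gene said to have risen or fallen, at an adjusted p below 0.05 in limma with Benjamini-Hochberg adjustment over all 45037 probe sets. Where a gene had several probe sets, the brightest over all arrays stood for it in counts over genes and lists.

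Knockout arrays 2 and 3 stood apart from knockout array 1 and from all 6 wild-type arrays in genes of the sex chromosomes. Xist, the RNA that silences the inactive X chromosome in female cells, read 13732, 9580 and 11015 in media and 10123, 68.6 and 54.1 in the knockout. Eif2s3y, a gene of the Y chromosome, read 7.24, 2301 and 2335 in the knockout and no more than 34.8 on any wild-type array. Uty, another Y-linked gene, read 16.2, 229 and 149 in the knockout against at most 44.2 elsewhere. Kdm5d, the remaining Y-linked gene measured, was dim on every array and did not separate them, at 31.9, 66.3 and 21.3 in the knockout and 17.6 to 49.1 elsewhere. So knockout arrays 2 and 3 held 2 Y-linked transcripts and little Xist, and the other 7 arrays the reverse. Neither gene met the threshold over the whole group (adjusted p = 0.16 for Xist and 0.22 for Eif2s3y, limma). The same 2 arrays also held the lowest interferon-stimulated signals of the 6 compared, given below. Counts and the genes most dependent on them are given with and without them. The arrays numbered 1 differed in another measure, a spiked hybridisation control that read 350 to 465 on them and 112 to 170 on the others. Arrays were otherwise alike in scale, with trimmed mean signals of 496.1 to 497.1.

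**Figure D1:**
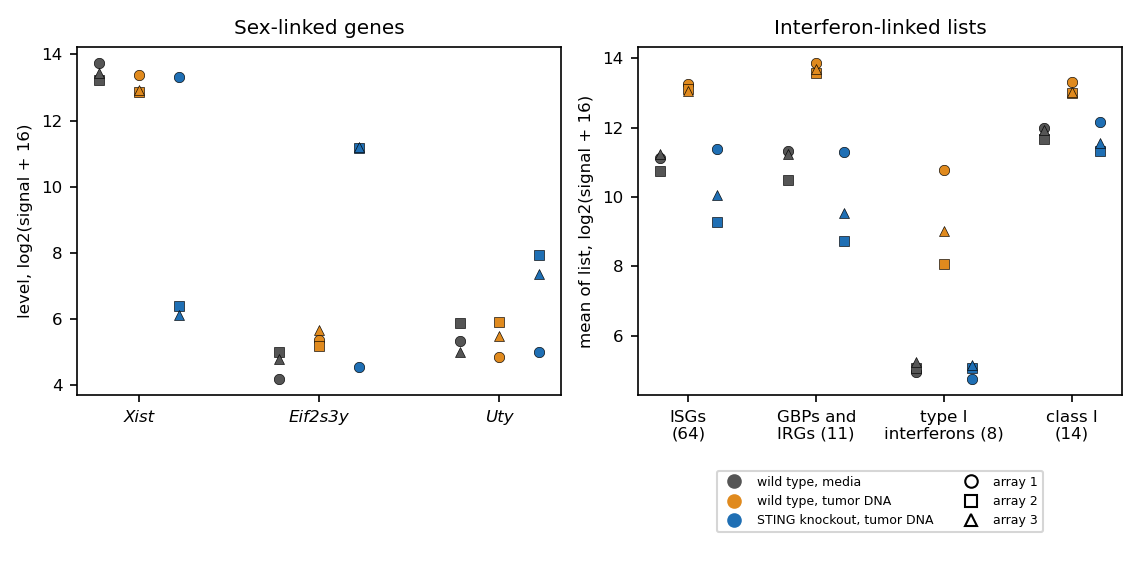
The left panel plots the level, log2(signal + 16), of Xist, Eif2s3y and Uty on each of the 9 arrays, and the right panel the mean level of 4 interferon-linked gene lists on each array, with colours for groups and shapes for array numbers. Knockout arrays 2 and 3 sit apart on the left, where the signal of Xist was 68.6 and 54.1. On the right they sit apart in all lists but the type I interferons. Their mean of the interferon-stimulated genes was 9.27 and 10.06, against 10.76 to 11.39 on the media arrays and knockout array 1. For type I interferons they were at 5.08 and 5.16, within the media range of 4.96 to 5.24.

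Over all probe sets, 129 (0.286%) were called higher and 110 (0.244%) lower in the knockout cells given DNA than in wild-type media cells. Their median size was 1.46 on the log2 scale, 185 of the 239 were larger than 1 and 67 larger than 2. All 239 kept one direction in the 3 pairs of equal number, and in 224 the 3 knockout values lay wholly above or wholly below the 3 media values. Of all genes, 5.7% lay wholly above and 6.81% wholly below. The calls were made on these same values and pairs, so both counts were largely fixed by the selection. For 174 of the 239 the knockout values lay wholly on one side of all 6 wild-type arrays, with and without DNA. The same held for 1757 of all 45037 probe sets. The median difference of all probe sets was -0.01. With the dimmest 40% of probe sets left out, arrays of the knockout correlated with media arrays at r = 0.935 to 0.969. Media arrays correlated with each other at 0.957 to 0.967, and both ranges are given as a description. Without knockout array 1 the counts were 120 higher and 191 lower, without knockout array 2 they were 71 and 53, and without knockout array 3 they were 37 and 45. With knockout array 1 as the only knockout array 28 were higher and 38 lower, 38 of them among the 239. Without media arrays 1, 2 and 3 in turn the counts were 46 and 39, 32 and 36, and 30 and 25.

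**Figure D2:**
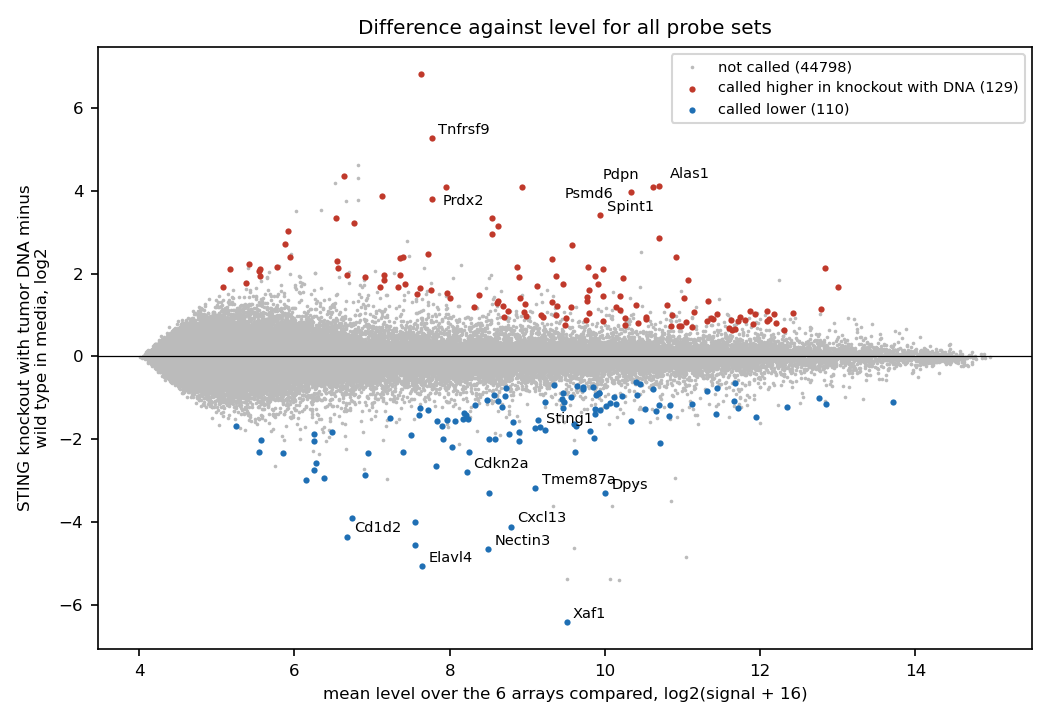
Each point is 1 of 45037 probe sets, with the mean log2(signal + 16) of the 6 arrays compared on the horizontal axis and the difference, knockout with DNA minus wild type in media, on the vertical axis; called probe sets are coloured and some genes named. The 129 higher and 110 lower calls lie on both sides of a cloud whose median is -0.01.

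Sting1, which encodes STING, checks the labels. It read 1524, 1081 and 646 in media and 246, 336 and 327 in the knockout. The groups did not overlap. The difference was -1.72 ± 0.29 (SE), with an adjusted p of 0.042 in limma, and the pairs gave -2.56, -1.64 and -0.95. The other probe set of the gene read 1244, 638 and 543 in media and 203, 285 and 331 in the knockout (-1.44 ± 0.32, adjusted p = 0.13). Signal remained in all 3 knockout arrays, and the labels do not say whether these probes lie in the altered part of the gene. Sting1 kept its call without knockout array 1 (-1.27, adjusted p = 0.038) and lost it when any other array or number was left out, with differences of -2.10 to -1.30 and adjusted p up to 0.24. It was also lost without the pairing of equal numbers (adjusted p = 0.11). With knockout array 1 alone it was -2.61 (adjusted p = 0.027). Among the 30 measured neighbours of Sting1, 15 on each side in RefSeq order, limma called 0 of 67 probe sets. Of all probe sets 0.286% were called higher and 0.244% lower. An unadjusted p below 0.05 was held by 5 of the 67 (7.46%) and by 4262 of all 45037. Differences of the 67 ran from -0.69 to 1.10.

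Of the 30 measured genes of DNA sensing and the STING relay, Sting1 was the 1 called lower and 0 were called higher, where 0.313% of all genes were called lower and 0.363% higher. The list's median was -0.23 and 21 members lay below zero, against 50.7% of all genes. Cgas, the cytosolic DNA sensor, read 533, 820 and 802 in media and 945, 646 and 837 in the knockout, which overlap (0.18 ± 0.22, adjusted p = 0.90). Tbk1, the kinase that STING recruits, read 3177, 4199 and 4694 in media and 4711, 4407 and 4366 in the knockout (0.18, adjusted p = 0.78). Irf3, the factor that TBK1 phosphorylates, differed by -0.04 (adjusted p = 0.98). For these 3 relay genes the groups overlapped. Dnase2a, the lysosomal enzyme that degrades engulfed DNA, read 696, 550 and 808 in media and 441, 266 and 434 in the knockout. Its groups lay apart, with the knockout below, but it did not meet the threshold (-0.84 ± 0.19, adjusted p = 0.14). Dnase2a is named here after its values were seen.

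The interferons themselves stayed near the media signals. Ifnb1, which encodes interferon beta, read 50.2, 47.3 and 72.4 in media and 43.3, 62.4 and 48.8 in the knockout with DNA. In wild-type cells with DNA it read 21593, 5213 and 10275. The knockout and media values overlapped, and their difference was -0.10 ± 0.39 (adjusted p = 0.98, limma). Of the 8 measured type I interferon genes limma called 0, where 0.363% of all genes were called higher and 0.313% lower. None of the 8 had an unadjusted p below 0.05, against 11.3% of all genes. Differences of the 8 ran from -0.48 to 0.37 with a median of -0.13. In wild-type cells given DNA the median against the same media arrays was 4.66. The mean log2 level of the 8 genes was 4.96, 5.06 and 5.24 in media and 4.75, 5.08 and 5.16 in the knockout. Probe sets at such signals are close to the floor of the scale, so small differences there have no measurable direction.

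Many interferon-stimulated genes carry an interferon response element near their start, and Ifit1, Ifit3 and Stat2 are shown to let a reader see it. The letters searched were GAAA, any 2 bases and GAAA again, on both strands of the 250 bases before each RefSeq start. Each window below is given on its gene's strand (GRCm38.p6, RefSeq), where a match on the opposite strand reads TTTC, any 2 bases and TTTC, and the capitals mark it. Ifit1 (chr19:34640639-34640888, plus strand) held 2 matches, at bases 104 to 95 and 85 to 76 before the start. Ifit3 (chr19:34583279-34583528, plus strand) held 2, at bases 156 to 147 and 122 to 113. Stat2 (chr10:128270248-128270497, plus strand) held 1, at bases 222 to 213.
Ifit1: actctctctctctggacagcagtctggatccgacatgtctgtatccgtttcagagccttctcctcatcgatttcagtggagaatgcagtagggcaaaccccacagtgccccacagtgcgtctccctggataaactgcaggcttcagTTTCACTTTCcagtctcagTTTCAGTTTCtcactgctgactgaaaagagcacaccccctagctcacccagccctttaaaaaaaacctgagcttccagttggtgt
Ifit3: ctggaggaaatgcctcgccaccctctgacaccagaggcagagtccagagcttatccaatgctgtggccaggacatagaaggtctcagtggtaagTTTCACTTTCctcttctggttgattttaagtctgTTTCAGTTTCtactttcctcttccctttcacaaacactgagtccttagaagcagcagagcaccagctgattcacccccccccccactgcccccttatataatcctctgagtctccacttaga
Stat2: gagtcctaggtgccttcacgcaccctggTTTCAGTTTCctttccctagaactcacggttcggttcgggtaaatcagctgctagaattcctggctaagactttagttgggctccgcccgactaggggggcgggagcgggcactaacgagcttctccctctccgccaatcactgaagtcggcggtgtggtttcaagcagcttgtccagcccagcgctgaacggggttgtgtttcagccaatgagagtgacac
At least 1 window with the letters was held by 936 of the 27025 genes that had a window (3.46%). Among listed interferon-stimulated genes it was 18 of the 55 that had a window (32.7%). A match is a description of letters, not a site in use. The 15 measured listed genes with a match had a median difference of -0.70, with a range of -1.59 to 1.96, and the 36 without one had a median of -0.78. By pair the medians were 0.43, -1.70 and -1.08 with a match and 0.20, -1.25 and -1.12 without. Both sets were above media in the pair numbered 1 and below it in the other pairs.

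Interferon-stimulated genes lay below the media level in knockout arrays 2 and 3 and slightly above it in knockout array 1. Of 64 measured members 56 had a difference below zero, and the median was -0.80. Only 1 was called lower, Xaf1, and 0 higher, where 0.313% and 0.363% of all genes were. At an unadjusted p below 0.05, 38 were lower and 3 higher, together 64.1% of the list against 11.3% of all genes. The pair medians were 0.23, -1.35 and -1.14. Without knockout array 1, 35 members were called lower and the median was -1.28. Without all 3 arrays numbered 1, 22 were called lower. With knockout array 1 alone the median was 0.21, 12 members lay below zero, 1 was called lower, and 2 were called higher, Slfn8 at 3.87 and Trim30d at 1.89. Only 4 members lay wholly below media in all 3 knockout arrays and 2 wholly above, against 6.81% and 5.70% of all genes. These 2 low arrays are the ones with Y-linked transcripts, and the part of that in the result was not tested.

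Single members show the same split. Ifit1, which encodes an RNA-binding antiviral protein, read 4224, 3887 and 8397 in media and 6499, 573 and 1681 in the knockout (-1.47 ± 0.56, adjusted p = 0.44). Ifit3, its partner, read 5613, 2160 and 4246 in media and 6189, 397 and 1067 in the knockout (-1.41 ± 0.53, adjusted p = 0.43). Usp18, the protease that restrains the interferon receptor, read 5018, 4132 and 6896 in media and 6115, 982 and 1852 in the knockout (-1.22 ± 0.41, adjusted p = 0.36). In these 3 genes knockout array 1 lay inside the media range, or above it for Ifit3, and knockout arrays 2 and 3 below it. Irf7, the factor that amplifies interferon transcription, read 1955, 1979 and 2452 in media and 2002, 427 and 852 in the knockout (-1.22 ± 0.35, adjusted p = 0.26). Mx1, an antiviral GTPase, read 2954, 1563 and 2740 in media and 3361, 489 and 982 in the knockout (-0.98, adjusted p = 0.43). Oasl1, of the oligoadenylate synthetase family, read 1455, 1298 and 1128 in media and 1343, 358 and 491 in the knockout (-1.03 ± 0.29, adjusted p = 0.24). Irf7, Oasl1, Usp18, Ifit1, Ifit3 and Mx1 were each called lower without knockout array 1 or without the arrays numbered 1. Isg20, an exonuclease, and Stat2 were not called under either, and differed by -0.96 (adjusted p = 0.28) and -0.70 ± 0.23 (adjusted p = 0.34). With knockout array 1 alone Irf7 was at -0.13, Ifit1 at 0.44, Ifit3 at 0.38 and Usp18 at 0.20, none called.

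The GTPase families that interferon induces split by array in the same manner. Of 11 measured genes of the guanylate-binding protein and IRG families of GTPases, which attack vacuoles that hold pathogens, 10 lay below zero with a median of -0.97. Limma called 0 of them, where 0.363% of all genes were called higher and 0.313% lower. At an unadjusted p below 0.05, 9 were lower, 81.8% of the 11 against 11.3% of all genes in either direction. Pair medians of the 11 were 0.16, -1.70 and -1.60. Class I antigen presentation genes had a smaller median of -0.16 and pair medians of 0.07, -0.22 and -0.38, with 12 of 14 below zero, 0 called and 3 at an unadjusted p below 0.05. Interferon regulatory factors had a median of -0.37 over 8 genes, and receptors and signalling genes of -0.08 over 14, with no such split in the latter (pair medians -0.06, -0.03 and -0.07). Limma called 0 in both lists, and 4 in each had an unadjusted p below 0.05. Ifnar2, a chain of the type I receptor, read 6988, 4917 and 5832 in media and 4588, 4081 and 4485 in the knockout. Its groups lay apart, yet it did not meet the threshold (-0.42 ± 0.12, adjusted p = 0.25). Slfn8 and Ifi44l, named after their values were seen, differed in opposite directions. Slfn8, of the Schlafen family, read 185, 182 and 150 in media and 2853, 237 and 522 in the knockout (1.96 ± 0.56, adjusted p = 0.26). Ifi44l read 5673, 2119 and 4575 in media and 3070, 6.19 and 420 in the knockout (-3.62 ± 0.97, adjusted p = 0.22). With knockout array 1 alone Ifi44l was at -0.81 (adjusted p = 0.87).

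Xaf1, an interferon-inducible gene whose product binds the apoptosis inhibitor XIAP, gave the largest fall among named genes. It read 6306, 5202 and 9207 in media and 72.4, 46.7 and 72.2 in the knockout. The groups were far apart, at -6.42 ± 0.18 (adjusted p = 1.2e-06, limma), and the call held under every alternative run. In wild-type cells with DNA it read 21670, 21687 and 18819. The other probe set of Xaf1 differed in the opposite direction without being called, at 452, 645 and 848 in media and 3412, 1055 and 1841 in the knockout (1.56 ± 0.35, adjusted p = 0.13). The 2 probe sets thus do not give 1 value for the gene.

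Chemokines held 2 calls among 29 measured genes, both lower, with a median of 0.11, where 0.313% of all genes were called lower. At an unadjusted p below 0.05, 6 were higher and 4 lower, 34.5% of the list against 11.3% of all genes. Cxcl13, which attracts B cells, read 10635, 772 and 734 in media and 150, 71.5 and 67.6 in the knockout. The knockout lay below every media array, although media array 1 was far above the other 2 (-4.12 ± 0.59, adjusted p = 0.021). Its second probe set was called too (-3.30, adjusted p = 0.048). The call was lost without any 1 media array and without the arrays numbered 2 or 3 (adjusted p up to 0.18), and kept without any 1 knockout array. It was also lost without the pairing (adjusted p = 0.44), with an offset of 64 and without the intensity trend. Cxcl11, a ligand of CXCR3 on T cells that is named here after its values were seen, read 917, 685 and 1071 in media and 373, 172 and 202 in the knockout. It fell by 1.83 on the log2 scale (SE 0.20, adjusted p = 0.0046), with the groups apart. The call was lost without the arrays numbered 2 or 3 (adjusted p up to 0.15) and without the intensity trend (adjusted p = 0.084). A second probe set gave -1.06 (adjusted p = 0.15). In wild-type cells with DNA Cxcl11 read 26454, 24207 and 24425, so its knockout values were lowest of the 3 groups. Cxcl10, also a CXCR3 ligand, read 4681, 3948 and 3945 in media and 7099, 681 and 1316 in the knockout (-1.16, adjusted p = 0.51), the split of the interferon-stimulated genes. Cxcl9, of the same ligand group, differed by -1.43 ± 0.32 (adjusted p = 0.13). Ccl5 differed by 0.27 (adjusted p = 0.69).

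Cytokine genes leaned upward. Of 25 measured, 22 had a difference above zero, with a median of 0.49 and pair medians of 0.33, 0.45 and 0.59. Vegfa, the endothelial growth factor, was the 1 called higher and 0 were called lower, where 0.363% and 0.313% of all genes were. At an unadjusted p below 0.05, 8 were higher and 2 lower, 40% of the list against 11.3% of all genes. All 3 knockout values lay above media in 2 of the 25 members, against 5.7% of all genes. Vegfa read 1094, 1553 and 2175 in media and 1586, 3096 and 3486 in the knockout, which overlap, and rose in each pair (0.73 ± 0.12, adjusted p = 0.034). Its call was lost in each of 9 fits that left arrays out (adjusted p 0.051 to 0.44) and without the pairing (adjusted p = 0.84). Il12b, a subunit of interleukin 12 and 23, read 138, 165 and 66.1 in media and 479, 471 and 939 in the knockout. The groups lay apart, but the gene did not meet the threshold (2.22 ± 0.48, adjusted p = 0.12). In wild-type cells with DNA it read 10441, 2317 and 3813. Tnf read 319, 1898 and 1278 in media and 1933, 2350 and 2225 in the knockout (1.21 ± 0.59, adjusted p = 0.58). Il1b read 3271, 5068 and 6906 in media and 5893, 12035 and 13791 in the knockout (1.03 ± 0.24, adjusted p = 0.15). It was called only when the 6 arrays compared were fitted alone (adjusted p = 0.021). Il6 read 897, 1739 and 2722 in media and 922, 3738 and 4343 in the knockout (0.60, adjusted p = 0.81). Il15, which sustains NK cells, differed by -0.76 (adjusted p = 0.28), with knockout array 1 at 1000 and arrays 2 and 3 at 251 and 362. Limma called 0 of 21 NF-kappaB pathway genes (median 0.10, 16 above zero, 4 at an unadjusted p below 0.05). It also called 0 of 22 negative regulators of cytokine signalling (median 0.43, 18 above zero, 7 at an unadjusted p below 0.05).

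Immediate early and AP-1 genes, which answer within minutes to many stimuli, held 2 calls among 30 measured, both higher. Of all genes 0.363% were called higher. At an unadjusted p below 0.05, 12 were higher and 1 lower, 43.3% of the list against 11.3% of all genes. Moreover 9 of the 30 had all 3 knockout values above media, where 5.70% of all genes did. The list's median was 0.41, with 25 above zero and pair medians of 0.45, 0.26 and 0.29. Fos, a subunit of AP-1, read 2592, 2824 and 2230 in media and 6087, 4461 and 5979 in the knockout. The groups lay apart (1.10 ± 0.17, adjusted p = 0.027), and wild-type cells with DNA read 2025, 2671 and 2149. Nr4a1, an orphan nuclear receptor, read 233, 290 and 183 in media and 537, 675 and 644 in the knockout (1.35 ± 0.17, adjusted p = 0.012). Both genes are named after their values were seen. Of the 9 fits that left arrays out, Fos kept its call only without knockout array 2 or the arrays numbered 2. Nr4a1 kept its call only without knockout array 1. Adjusted p reached 0.47 for Fos and 0.27 for Nr4a1 in the other fits. Without the intensity trend both calls were lost (adjusted p = 0.095 for Nr4a1). That of Fos was also lost with only the 6 arrays compared (adjusted p up to 0.22 for Fos). Jun, the partner of Fos, read 1542, 2390 and 2567 in media and 4025, 3204 and 3859 in the knockout (0.79 ± 0.19, adjusted p = 0.17). Its groups lay apart too. Dusp1, a phosphatase that turns off MAP kinases, read 2042, 3144 and 2789 in media and 4170, 3433 and 4796 in the knockout (0.64, adjusted p = 0.24).

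Limma called 0 of 23 listed costimulatory and maturation genes, where 0.363% of all genes were called higher and 0.313% lower. At an unadjusted p below 0.05, 5 were higher and 0 lower, 21.7% of the list against 11.3% of all genes. The list's median was 0.26, and 3 of the 23 had all knockout values above media, against 5.7% of all genes. Cd86, a ligand of CD28 on T cells, read 3219, 1822 and 2679 in media and 4210, 3801 and 5096 in the knockout. The groups lay apart without meeting the threshold (0.79 ± 0.16, adjusted p = 0.090). In wild-type cells with DNA it read 19977, 13463 and 13881. Without knockout array 1 it was called (adjusted p = 0.025). Cd80, the other CD28 ligand, read 254, 451 and 452 in media and 431, 1801 and 1477 in the knockout (1.45 ± 0.33, adjusted p = 0.14). It was called without knockout array 1 and without the arrays numbered 1 (lowest adjusted p = 0.012), and was at 0.47 with knockout array 1 alone. Cd40 read 751, 612 and 423 in media and 993, 364 and 636 in the knockout, which overlap (0.08, adjusted p = 0.97). Class II presentation genes had a median of -0.30, with 12 of 15 below zero, 0 called and 7 lower at an unadjusted p below 0.05. H2-DMa, which loads peptides on class II, read 12570, 8018 and 8196 in media and 7975, 4573 and 5244 in the knockout (-0.70 ± 0.13, adjusted p = 0.067). It was called with the 6 arrays alone or with dim probe sets filtered out (lowest adjusted p = 0.036). One dimmer probe set of H2-DMb2, the partner chain, was called just below the threshold: 3319, 3344 and 1850 in media and 1173, 1122 and 1303 in the knockout (-1.18 ± 0.21). Its 2 other probe sets differed by -0.87 and -0.62 and were not called (adjusted p = 0.38 and 0.33). Cd80, H2-DMa and H2-DMb2 are named after their values were seen.

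**Figure D3:**
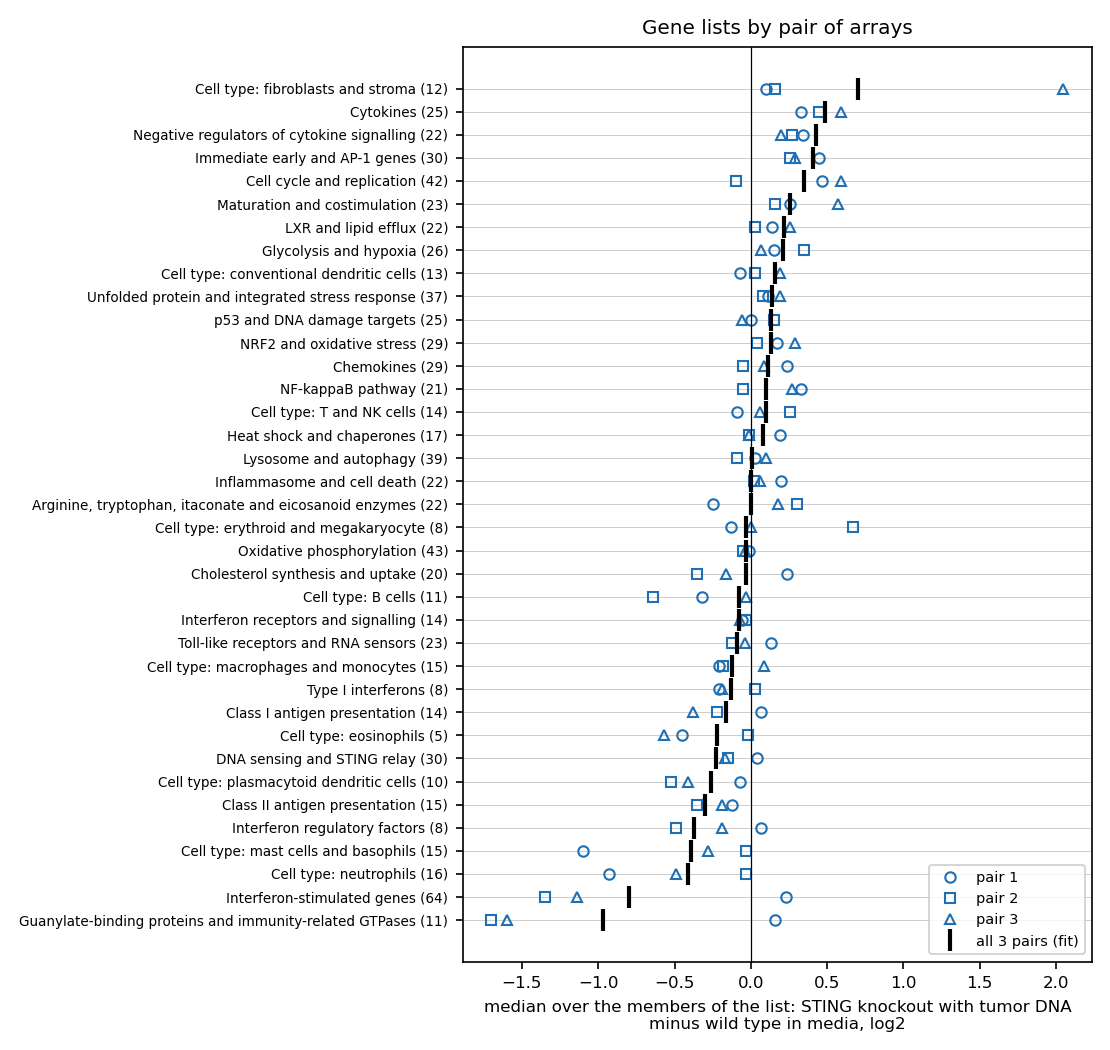
For each gene list, points give the median difference, knockout with DNA minus wild type in media on the log2 scale, in each of the 3 pairs of equal array number, and a bar that over all pairs; list sizes are in brackets. Interferon-stimulated genes and guanylate-binding proteins lie at 0.23 and 0.16 in the pair numbered 1 and at -1.35 and -1.70 in the pair numbered 2, while cytokines lie at 0.33, 0.45 and 0.59.

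Both groups given DNA were compared with the same media arrays, so their differences are not independent and are given side by side without a test of likeness. Pdpn, podoplanin, a membrane glycoprotein that binds the platelet receptor CLEC-2, read 106, 378 and 1125 in media and 3241, 9054 and 9088 in the knockout. Wild-type cells with DNA were at 489, 1518 and 3086. It differed from media by 4.09 ± 0.28 in the knockout (adjusted p = 0.00027) and by 1.82 in the wild-type DNA group (adjusted p = 0.0018). Media signals differed widely between arrays, and without the pairing the knockout call was lost (adjusted p = 0.11). Rgcc, a regulator of the cell cycle, read 101, 287 and 745 in media and 873, 2675 and 3067 in the knockout (2.70 ± 0.36, adjusted p = 0.014), with wild-type DNA arrays at 3044, 2847 and 4081. Pla1a, a phospholipase that acts on phosphatidylserine, read 73.0, 66.6 and 85.0 in media and 164, 367 and 336 in the knockout (1.68 ± 0.26, adjusted p = 0.030), with wild-type DNA arrays at 1094, 1013 and 885. Rgcc and Pla1a were named after their values were seen. In all 3 genes the knockout lay above media in every pair. The Rgcc call was kept without knockout array 1, media array 3 or the arrays numbered 1 and lost in the other 6 fits (adjusted p up to 0.21), and it was lost without the pairing (adjusted p = 0.19) and without the trend. That of Pla1a was kept only without knockout array 1 or the arrays numbered 1 (up to 0.39 in the others). The Pla1a call was also lost with only the 6 arrays compared, with an offset of 64 and without the trend (adjusted p up to 0.17).

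The single largest belonged to a probe set with no gene symbol, which read 5.25, 0.793 and 2.13 in media and 2336, 2423 and 1610 in the knockout (6.82, adjusted p = 1.5e-05). By the naming rule the 12 largest rises of genes with separate groups were those of Tnfrsf9, Trim12a, Alas1, Trim34a, Pdpn, Psmd6, Ankrd33b, Prdx2, Spint1, Fblim1, Trim5 and Junos. Alas1, the first enzyme of heme synthesis, read 247, 484 and 469 in media and 4286, 8259 and 9334 in the knockout (4.12 ± 0.14, adjusted p = 3.2e-06). Its second probe set rose as well, from 3540, 6456 and 4175 to 12022, 15952 and 16840 (1.69 ± 0.17, adjusted p = 0.0032). Wild-type cells with DNA stayed at 406, 722 and 577 on the first. Tnfrsf9, the costimulatory receptor 4-1BB, read 50.2, 2.66 and 18.7 in media and 349, 2804 and 2456 in the knockout (5.29 ± 0.72, adjusted p = 0.016). A second probe set of Tnfrsf9 rose from 84.5, 122 and 104 to 694, 3219 and 3544 (4.09 ± 0.41, adjusted p = 0.0030), and the one left did not meet the threshold (-0.84, adjusted p = 0.48). Tnfrsf9 was higher in knockout arrays 2 and 3 than in array 1, and with array 1 alone the first probe set gave 2.92 (adjusted p = 0.36). Spint1, an inhibitor of serine proteases at the cell surface, read 264, 250 and 350 in media and 1833, 4676 and 3812 in the knockout (3.42 ± 0.23, adjusted p = 0.00025). Fblim1, an adaptor of cell adhesions, read 150, 52.0 and 126 in media and 825, 1446 and 1351 in the knockout (3.34 ± 0.44, adjusted p = 0.014).

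For several of these genes a second probe set showed no such rise. Psmd6, a subunit of the proteasome cap, read 164, 315 and 562 in media and 4628, 5362 and 5349 in the knockout on the called probe set (3.97 ± 0.24, adjusted p = 0.00019). On its other probe set it read 5832, 6195 and 6970 in media and 6850, 6735 and 6891 in the knockout (0.11, adjusted p = 0.84). Prdx2, a peroxiredoxin that reduces hydrogen peroxide, read 33.9, 47.7 and 45.9 in media and 777, 820 and 816 in the knockout on the called probe set (3.82 ± 0.25, adjusted p = 0.00025). Its other probe set read 7279, 7652 and 7080 in media and 8289, 8413 and 8463 in the knockout (0.19, adjusted p = 0.73). So the rise of Psmd6 and Prdx2 was seen by 1 probe set each. Ankrd33b read 28.6, 17.3 and 16.8 in media and 366, 541 and 707 in the knockout (3.87 ± 0.31, adjusted p = 0.00066), with other probe sets at 0.25 and 0.58. Trim12a, Trim5 and Trim34a are neighbouring copies of an antiviral ubiquitin ligase family, and probes may not tell such copies apart, so their values are uncertain. Trim12a read 2.18, 1.41 and 16.8 in media and 850, 281 and 340 in the knockout (4.37 ± 0.46, adjusted p = 0.0044). Trim34a rose on 1 probe set (4.09 ± 0.44, adjusted p = 0.0046) and fell on another, from 359, 329 and 394 to 102, 21.9 and 80.2 (-2.31 ± 0.33, adjusted p = 0.018). Trim5 rose by 3.33 ± 0.44 (adjusted p = 0.014). Junos, transcribed antisense to Jun, read 2.31, 38.5 and 30.1 in media and 103, 691 and 419 in the knockout (3.21 ± 0.48, adjusted p = 0.025).

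The 12 largest falls were those of Xaf1, Elavl4, Nectin3, Cd1d2, Cxcl13, Dpys, Tmem87a, Fah, Cdkn2a, Bloc1s6, Hddc3 and Slc1a2. Elavl4, an RNA-binding protein best known from neurons, read 854, 1562 and 1121 in media and 53.7, 5.06 and 11.7 in the knockout (-5.08 ± 0.40, adjusted p = 0.00062). All 3 probe sets of Elavl4 fell, the others by 4.57 and 4.01 on the log2 scale. Cd1d2, a CD1 molecule of the family that presents lipids, read 393, 387 and 594 in media and 7.17, 3.83 and 9.38 in the knockout (-4.36 ± 0.20, adjusted p = 2.3e-05). The knockout signals of both genes were low, those of Cd1d2 at the floor. Dpys, an enzyme of pyrimidine breakdown, read 3623, 3405 and 2696 in media and 297, 348 and 287 in the knockout (-3.31 ± 0.14, adjusted p = 1.5e-05), while its other probe sets gave -0.14 and 0.86. Cdkn2a, a locus of cell cycle inhibitors, read 447, 1146 and 881 in media and 67.7, 103 and 131 in the knockout (-2.79 ± 0.20, adjusted p = 0.00036). Cdkn2b, its neighbour and also a cyclin-dependent kinase inhibitor, read 1279, 2221 and 2176 in media and 281, 478 and 689 in the knockout (-1.98 ± 0.27, adjusted p = 0.015). It is named after its values were seen, and lost its call without the trend (adjusted p = 0.14) and without knockout array 2, any 1 media array or the arrays numbered 2 or 3 (up to 0.18). Nectin3, a cell adhesion molecule, read 2321, 1107 and 2251 in media and 522, 4.88 and 17.4 in the knockout (-4.65 ± 0.72, adjusted p = 0.029). Tmem87a read 1873, 1387 and 1717 in media and 156, 232 and 126 in the knockout (-3.19 ± 0.20, adjusted p = 0.00023). Bloc1s6, a subunit of a complex that builds lysosome-related organelles, read 590, 596 and 474 in media and 93.0, 63.0 and 70.4 in the knockout (-2.64 ± 0.16, adjusted p = 0.00019). Its 2 other probe sets differed by -0.17 and -0.05. The remaining falls were of Fah, the last enzyme of tyrosine breakdown (-2.86 ± 0.40, adjusted p = 0.018), Hddc3 (-2.34 ± 0.32, adjusted p = 0.015) and Slc1a2, a glutamate transporter (-2.33 ± 0.30, adjusted p = 0.012).

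**Figure D4:**
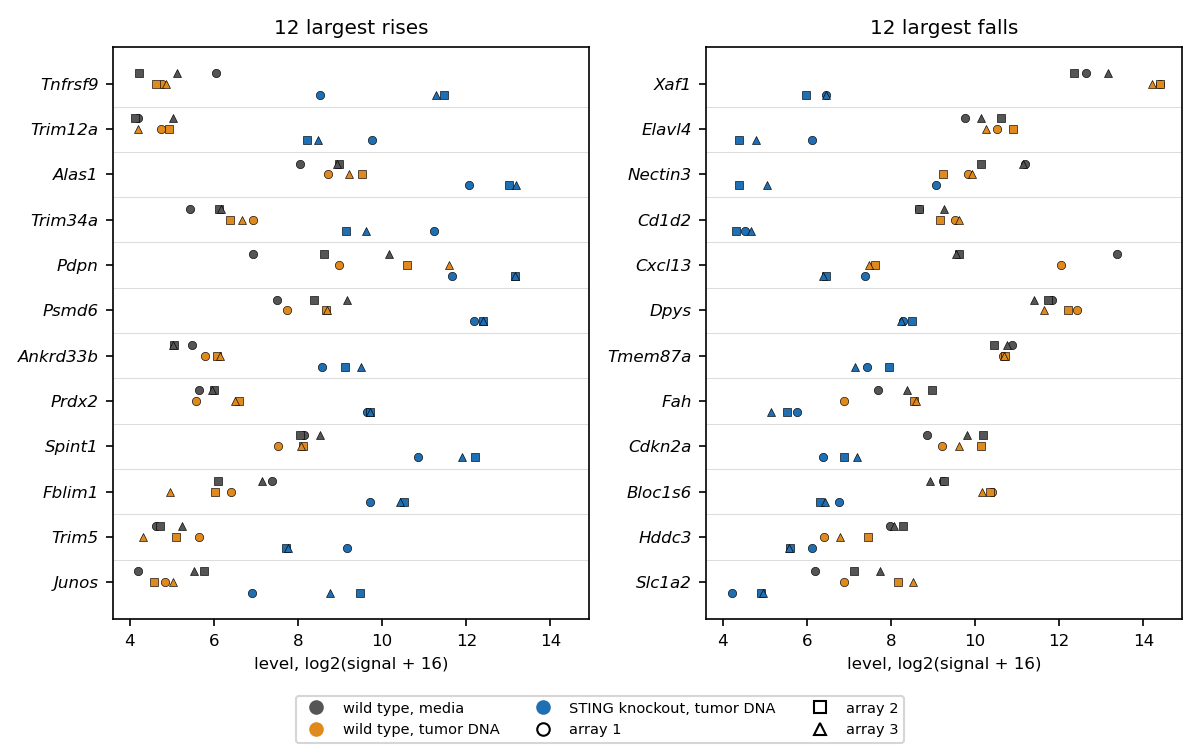
Points give the log2(signal + 16) of the 12 largest rises and the 12 largest falls of the naming rule on each of the 9 arrays, with colours for groups and shapes for array numbers. For each gene the 3 knockout values lie apart from the 3 media values, as with Alas1 at 4286 to 9334 against 247 to 484 signal units.

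Among these 24 genes, Alas1, Pdpn, Psmd6, Prdx2, Spint1, Xaf1, Cd1d2, Dpys, Tmem87a, Cdkn2a and Bloc1s6 kept their call in all 9 fits that left out 1 array or 1 number. Among these fits, Trim34a, Ankrd33b and Elavl4 lost it only without the arrays numbered 3 (adjusted p = 0.11, 0.056 and 0.056). Trim12a lost it only without those numbered 2 or 3 (up to 0.063). Fblim1, Junos, Nectin3, Fah, Hddc3 and Slc1a2 kept it only without knockout array 1 or the arrays numbered 1, with adjusted p up to 0.16, 0.39, 0.43, 0.27, 0.33 and 0.34 in the other 7 fits. Tnfrsf9 kept it only without those or media array 1 (up to 0.36). Trim5 kept it only without knockout array 1, knockout array 2 or media array 3 (up to 0.14). Without the pairing Nectin3, Junos, Cxcl13, Pdpn and Slc1a2 lost their call. Without the intensity trend Tnfrsf9, Trim34a, Fblim1, Trim5, Junos, Nectin3, Cxcl13, Fah and Hddc3 lost it. With only the 6 arrays compared it was lost for Tnfrsf9, Nectin3 and Slc1a2. An offset of 64 removed it for Junos, Cxcl13 and Slc1a2. With knockout array 1 as the only knockout array, Alas1 was at 3.95, Cd1d2 at -4.28 and Xaf1 at -6.24, each called. There Tmem87a, Dpys and Elavl4 were called too, while Fblim1, Junos, Fah, Hddc3 and Slc1a2 were at 2.29, 2.21, -1.68, -1.68 and -1.91 and not called (adjusted p = 0.66, 0.67, 0.45, 0.50 and 0.38).

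A few other called genes are named after their values were seen. Efhd2, a calcium-binding protein of immune cells, read 3034, 3399 and 4064 in media and 16297, 14159 and 15795 in the knockout (2.14 ± 0.14, adjusted p = 0.00023). Its second probe set rose by 1.05 (adjusted p = 0.013). Khdrbs1, the RNA-binding protein Sam68, rose on 2 of its 7 probe sets, the larger from 532, 480 and 850 to 4777, 3665 and 5010 (2.85 ± 0.18, adjusted p = 0.00023). The 7 ranged from -0.01 to 2.85. Cd300ld, a receptor of myeloid cells, read 505, 450 and 452 in media and 2884, 1591 and 1999 in the knockout (2.12 ± 0.23, adjusted p = 0.0047). Its call was lost without media array 3 or the arrays numbered 3 (adjusted p up to 0.18) and without the intensity trend (adjusted p = 0.075). Itga4, an integrin chain of leukocytes, fell on 1 probe set, from 1966, 1722 and 1526 to 565, 275 and 237 (-2.32 ± 0.19, adjusted p = 0.00066). Its 4 other probe sets differed by -0.67 to -0.37 without meeting the threshold. Hebp1, which binds heme, read 3708, 3148 and 3428 in media and 942, 697 and 764 in the knockout (-2.08 ± 0.15, adjusted p = 0.00039). In wild-type cells with DNA Hebp1 read 1290, 1195 and 1808.

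Probe sets of 1 gene often disagreed. Of 177 genes with a called probe set 122 had at least 2 probe sets, and in 14 of these all were called. In 98 only 1 was called. The 229 uncalled probe sets of these genes had a median size of 0.40 against 1.46 for all called ones, 97 were less than 25% of the called difference and 51 had the opposite sign. Trim34a was the 1 gene with calls in both directions. A call here is thus a statement about a probe set, and for most of these genes not about every transcript form that the array reads.

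Called genes were spread unevenly over the chromosomes. Of 18031 genes that RefSeq places on a chromosome, 175 (0.971%) had a called probe set. Chromosome 4 held 34 of its 1087 genes (3.13%), 21 higher and 13 lower, which is 19.4% of the called genes on 6.03% of the genes. Chromosomes 3, 8 and 2 held 16 called genes each, at 1.75%, 1.72% and 1.14% of their genes. The X chromosome held 1 (0.162%), chromosome 19 held 1 (0.164%) and chromosome 18, which carries Sting1, held 2 (0.436%). Counting called genes at most 5 measured genes apart as 1 run, there were 24 runs that held 56 of the called genes, 10 of them on chromosome 4. One such run was Cdkn2a and Cdkn2b (-2.79 and -1.98), and another Efhd2 and Pdpn (2.14 and 4.09). Khdrbs1 and Ptp4a2 (2.85 and -1.23) and Junos and Hook1 (3.21 and -2.19) were neighbours that went opposite ways. Runs on other chromosomes included Trim34a, Trim5 and Trim12a on chromosome 7 and Sh3d19, Cd1d2 and Fcrls on chromosome 3. These counts describe the called genes, and no test of position was made. Differences of genotype at such places and the response to DNA cannot be told apart, since each group holds 1 genotype.

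**Figure D5:**
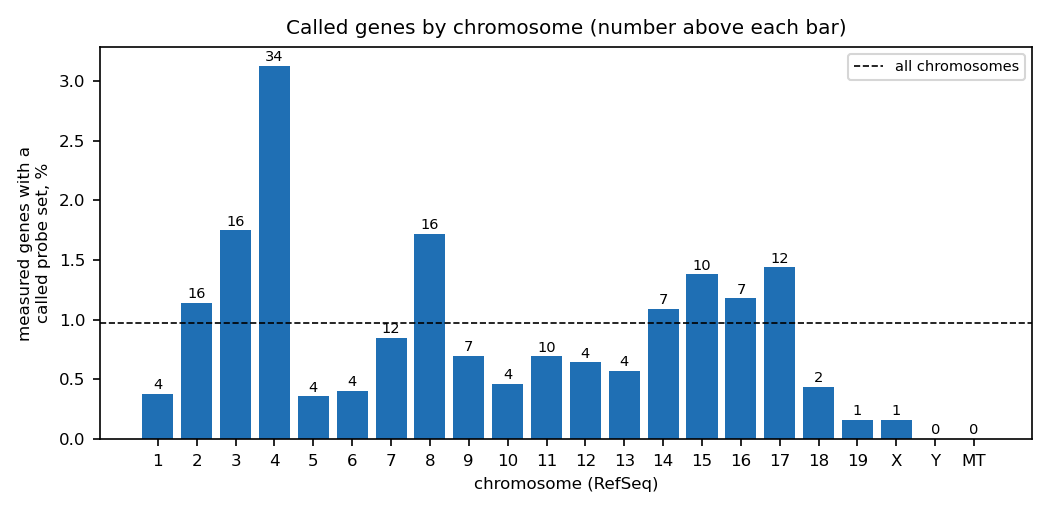
Bars give, for each chromosome, the percent of its measured genes with a probe set called in either direction, with the number of such genes above the bar and the share over all chromosomes as a dashed line. Chromosome 4 has the tallest bar, 34 genes or 3.13%, against 0.971% over all.

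Itgax, which encodes CD11c, a marker of the labelled cell type, read 4108, 5939 and 5208 in media. It read 5267, 6085 and 5557 in the knockout, which overlap (0.16, adjusted p = 0.78). Markers of conventional dendritic cells had a median of 0.16 over 13 genes, with a range of -0.51 to 1.32. All 3 knockout values lay above media in 2 of them, against 5.7% of all genes. The list's summed signal was 45109 to 50379 in media and 39482 to 47127 in the knockout, with Flt3 at or near the floor. Macrophage and monocyte markers had a median of -0.12 over 15 genes, and Csf1r, the receptor for macrophage growth factor, differed by -0.09 (adjusted p = 0.89). Their summed signal was 114437 to 171534 in media and 104885 to 158795 in the knockout. Limma called 0 genes in both lists, where 0.363% of all genes were called higher and 0.313% lower. An unadjusted p below 0.05 was held by 2 and 3 listed genes, against 11.3% of all genes.

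Granulocyte markers leaned lower. Of 16 neutrophil markers 13 lay below zero, with a median of -0.41 and pair medians of -0.93, -0.03 and -0.49, and of 15 mast cell and basophil markers also 13, with a median of -0.39 and pair medians of -1.10, -0.03 and -0.28. Limma called 0 in both lists, where 0.313% of all genes were called lower. At an unadjusted p below 0.05, 6 and 4 were lower, against 11.3% of all genes in either direction. Wholly below media were 3 and 5 of the listed genes, against 6.81% of all genes. Their summed signals were 65417 to 115452 in media and 77768 to 79131 in the knockout for neutrophils, and 958 to 1874 against 583 to 918 for mast cells and basophils. Camp, a granule peptide of neutrophils, read 6093, 676 and 1501 in media and 1186, 424 and 399 in the knockout (-1.62 ± 0.30, adjusted p = 0.058). The groups overlapped, and Camp was called with an offset of 1, quantile normalization, median centring or the filter (lowest adjusted p = 0.022) and without knockout array 2 (lowest 0.0038). Fcer1a, the IgE receptor chain, read 136, 75.9 and 49.1 in media and 14.5, 21.2 and 5.20 in the knockout, with the groups apart (-1.74 ± 0.35, adjusted p = 0.083; 0.037 with the filter). Prg2, an eosinophil granule protein, was the 1 called of 5 eosinophil markers. It read 6930, 360 and 1360 in media and 2863, 205 and 375 in the knockout, which overlap, and was lower in each pair (-1.28 ± 0.22, adjusted p = 0.042). Its call was kept only without knockout array 2 of the 9 fits (up to 0.29 in the others) and was lost without the pairing (adjusted p = 0.99). Among 10 markers of plasmacytoid dendritic cells Tcf4, their lineage factor, was the 1 called lower, on 2 of 6 probe sets. The larger fall was from 953, 706 and 784 to 603, 426 and 473 (-0.69 ± 0.11, adjusted p = 0.035), lost in all 9 fits (adjusted p up to 0.51) and without the pairing (adjusted p = 0.38). The part of these markers in other results was not tested. Camp, Fcer1a, Prg2 and Tcf4 are named after their values were seen.

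Markers of fibroblasts and stroma had a median of 0.70 over 12 genes, carried by the pair numbered 3 at 2.05, with 0.10 and 0.16 in the others. Limma called 0, where 0.363% of all genes were called higher and 0.313% lower. At an unadjusted p below 0.05, 4 were higher, against 11.3% of all genes in either direction. Markers of T and NK cells, B cells and erythroid cells had medians of 0.10, -0.08 and -0.03 over 14, 11 and 8 genes. Limma called 0 of them, and 2, 4 and 0 had an unadjusted p below 0.05.

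Stress and metabolic lists held 0 or 1 call each, where 0.363% of all genes were called higher and 0.313% lower. The share of all genes at an unadjusted p below 0.05 was 11.3%, beside which the counts below stand. Limma called 0 of 29 NRF2 and oxidative stress genes, of which 11 were higher and 0 lower at an unadjusted p below 0.05. Wholly above media lay 6 of them, against 5.7% of all genes. Gclc, the rate-limiting enzyme of glutathione synthesis, read 1202, 1242 and 1376 in media and 2128, 2071 and 3167 in the knockout (0.91 ± 0.19, adjusted p = 0.092). It is named after its values were seen, and was called only when the 6 arrays were fitted alone (adjusted p = 0.047). Hmox1, which breaks down heme, read 7180, 11169 and 10556 in media and 10308, 11485 and 14530 in the knockout (0.34, adjusted p = 0.42). Dnajb4, a chaperone, was the 1 gene called of 17 heat shock genes. It read 1604, 1824 and 1568 in media, then 1046, 1128 and 1038 in the knockout and 2891, 3234 and 3238 in the wild-type DNA group (-0.63 ± 0.11, adjusted p = 0.042), a call lost in all 9 fits that left arrays out (up to 0.47). Glycolysis and hypoxia genes had a median of 0.21 over 26, with Vegfa the 1 called and 9 higher and 1 lower at an unadjusted p below 0.05. Medians were -0.03 for 43 genes of oxidative phosphorylation, -0.03 for 20 of cholesterol synthesis and 0.22 for 22 of lipid efflux. They were 0.14 for 37 of the unfolded protein response, 0.01 for 39 of lysosome and autophagy, 0.13 for 25 p53 targets and 0.35 for 42 cell cycle genes. Limma called 0 in these 7 lists, with 0, 0, 3, 6, 5, 5 and 14 at an unadjusted p below 0.05. Of the 14 cell cycle genes, 13 were higher. The cell cycle pair medians were 0.47, -0.10 and 0.59. Inflammasome and cell death genes had a median of -0.00 over 22, Toll-like receptors and RNA sensors of -0.09 over 23, and arginine, tryptophan, itaconate and eicosanoid enzymes of 0.00 over 22. Limma called 0 in these 3 lists, with 4, 7 and 2 at an unadjusted p below 0.05.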

How the data were processed

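Labelled cRNA made from 6 ug of total RNA was hybridised to 1 Affymetrix array per sample. The deposited values are linear signal intensities, which the submitters' processing notes credit to MAS5. No version of it, and no build for the probe sets, is given in the sources used here. Of 45101 probe sets 64 controls were removed and the rest kept. Of these, 34945 carried 1 gene symbol, 932 several and 9160 none, and only the first were named. The number of arrays limits the precision. As the labels name no separate mice or cultures, p-values reflect only the scatter of these arrays, which may be technical.

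Signals were analysed as log2(signal + 16) with limma 3.58.1 in R 4.3.3 (lmFit, eBayes with an intensity trend, two-sided) on all 9 arrays, with the array number as a block and Benjamini-Hochberg adjustment over 45037 probe sets. The numbers come from the sample titles. Arrays of equal number were taken as pairs by these titles. Their residual correlation, with the dimmest 40% of probe sets left out, was 0.111 to 0.434 over 9 pairs. It was -0.365 to 0.16 over 18 others, so the ranges overlapped. Residuals from group means cancel within a group, so the ranges are not independent and do not test the pairing. The models were tested on simulated data.

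Named were the 12 largest rises and 12 largest falls among called genes whose groups lay apart, kept direction in every pair and whose brighter group exceeded the median level of 6.18, and a panel of pathway genes; others are marked in the text. Not every panel gene is reported here, and Ddx3y was not analysed here. Members, the 38 gene lists, rule and tests were chosen with earlier results of these data known. Alternatives were no block, only the 6 arrays, offsets of 1 and 64, quantile normalization, median centring, a filter on the dimmest 40% of probe sets, no trend, 1 probe set per gene, and leaving arrays out. Keeping only knockout array 1 was added after seeing the data. Symbols and neighbours were checked against RefSeq for GRCm38.p6 (34741 probe sets matched, 0 symbols changed).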

Additional observations from a re-analysis of the deposited data

How the results depend on the processing

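Without the replicate block, which treats equal array numbers as pairs, 53 were higher and 48 lower against 129 and 110 with it, and without the intensity trend 26 and 26. With 1 probe set per gene tested, 67 and 60 were called because fewer were tested. Leaving out arrays gave 16 to 120 higher and 15 to 191 lower, the fewest without the arrays numbered 3. Keeping only knockout array 1, chosen after seeing the data, gave 28 and 38. The other 6 settings gave 95 to 159 higher and 81 to 164 lower. With only the 6 arrays compared, 139 of the 239 calls were kept. Interferon-stimulated genes called lower numbered 1 in the 9 settings, 1 to 35 when arrays were left out, and 1 with only knockout array 1. Sting1 stayed lower throughout: its difference of -1.72 was not called without the replicate block, with the 6 arrays alone or without the trend, nor at -1.58 with an offset of 64. Leaving out arrays gave -2.10 to -1.27. With only knockout array 1 it was -2.61. Beyond the constructions named, the cause was not tested. Of all 239 calls 24 held in all of the 9 settings that tested them and in each of the 9 fits that left arrays out, and 0 of the 239 changed sign in any of these. Uncalled genes turned sign 28 times, in 18 of the 95 genes named or checked. Signals near the floor carry no detection call here, so small differences there are not measurable.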
